A study of Oryza sativa Japonica Group with 24 samples.

Results

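Peroxidase genes were followed through RNA-seq libraries of rice (Oryza sativa Japonica Group), made from roots and from shoots, in which phosphate (Pi) supply and regulators of the Pi response were varied. Genes were taken as members when their deposited description or their family column named a peroxidase, leaving out glutathione, animal-type and Dyp descriptions. This gave 162 of the 57668 features in the deposited table. The set was labelled as class III peroxidases, and the annotation supports that label only in part. Of the 162, 8 are the ascorbate peroxidases APX1 to APX8, which are class I enzymes inside the cell. One further member, LOC_Os12g26290, has a family column of the animal-type haem peroxidases although its description reads haem peroxidase, and another is an unannotated transcript with a peroxidase domain. The other 152 carry the description haem peroxidase and no class, so they are called haem peroxidases here. All 5 glutathione peroxidases were left out.

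There were 8 groups of 3 libraries, 4 groups in each tissue. The first was bHLH6-OV, plants that overexpress bHLH6, a transcription factor, at 200 µM Pi (high Pi), and the second an spx4 mutant at high Pi. The third was wild type (WT) at 10 µM Pi (low Pi), and WT at high Pi was the common comparison for all of them. Supply began with seedlings 7 days old and lasted 2 weeks, and every library pooled 3 seedlings of 1 genotype. Both lines were grown at high Pi, so neither was measured under low Pi, and each line is represented by 1 set of libraries, with the promoter that drives bHLH6 not given in the sources used here.

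Class III peroxidases are secreted haem enzymes of plants. They use hydrogen peroxide to couple phenolic compounds, which cross-links lignin, suberin and wall proteins, and they can also form reactive oxygen species that loosen walls. The family is large in grasses and many of its genes lie in tandem arrays, and in roots it is known for wall stiffening, lignified barriers and root hair growth. Ascorbate peroxidases instead detoxify hydrogen peroxide with ascorbate. APX1 and APX2 are the cytosolic forms, APX3 and APX4 the peroxisomal forms, APX7 a stromal form and APX8 the thylakoid form of chloroplasts.

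The libraries held 21.0 to 29.6 M reads assigned to genes, and member genes took 1.35% to 1.68% of them in roots and 0.315% to 0.426% in shoots. The bHLH6 gene was higher in bHLH6-OV by a log2 difference of 4.57 in roots and 4.08 in shoots, and it was also higher in WT shoots at low Pi, by 2.69 (limma adjusted p = 0.00485). SPX4 messenger RNA was lower in spx4 by 0.78 in roots and by 0.77 in shoots, so the mutant still held transcript of the gene. SPX4 was also lower in bHLH6-OV shoots, by 0.40 (limma adjusted p = 0.022). The Pi starvation RNA IPS1 was higher at low Pi by 9.36 in roots and 7.69 in shoots. Root libraries differed in RNA of photosynthetic tissue: the summed level of 9 leaf marker genes was 838 to 1191 FPKM in bHLH6-OV, 347 to 874 FPKM in spx4, 38.5 to 84.4 FPKM in WT at low Pi and 281 to 351 FPKM in WT at high Pi, with none at 0. In shoots it was 28978 to 118279 FPKM. Replicate 1 of WT low Pi shoots stood apart from its fellows, with a chi-square per degree of freedom of 90.5 and 101 against them, where the other pair had 9.10.

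Levels are FPKM, the number of fragments scaled to gene length and to library size, in a form already scaled between libraries. All differences between groups are of log2(FPKM + 1), which understates the change of genes with low levels, and the words most and largest refer to that scale. A gene was tested in a tissue when its mean over the 12 libraries was at least 1 FPKM, and called when its limma p, adjusted by Benjamini-Hochberg over all genes tested, was under 0.05. Tests were run on 120 members in roots and 55 in shoots, of which 48 were tested in both tissues. The remaining 35 members were tested in neither. Of those, 27 never reached 1 FPKM in any library, the highest single value among the 35 was 4.29 FPKM, and 2 (LOC_Os07g06380 and LOC_Os12g09460) had no read in any library. Counts below are therefore over the tested members and describe them only. Where a count is given under another scaling or fit, or with a library left out, the share of all genes called in that fit is not given. Such counts show how the calls of the members varied and are not set against all genes. The replicates of a group are separate pools of seedlings, and in bulk tissue fewer cells of a type and less RNA per cell cannot be told apart. Roots and shoots of the same replicate number may come from the same seedlings, which the labels do not say. All tests between tissues treat the 24 libraries as independent.

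Peroxidase RNA was mainly root RNA. In WT at high Pi, the summed level of all members was 7536, 8121 and 8396 FPKM in roots, against 2232, 2290 and 2559 FPKM in shoots. The excess lay in the haem peroxidases. Without the ascorbate peroxidases the sum averaged 6702 ± 429 FPKM in WT roots and 811 ± 46.3 FPKM in WT shoots (SD, n = 3 each). The 8 ascorbate peroxidases summed to 1316 ± 37.7 FPKM in roots and 1549 ± 136 FPKM in shoots. A mean of 100 FPKM or more was reached by 25 members over the root libraries and by 6 over the shoot libraries.

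**Figure D1:**
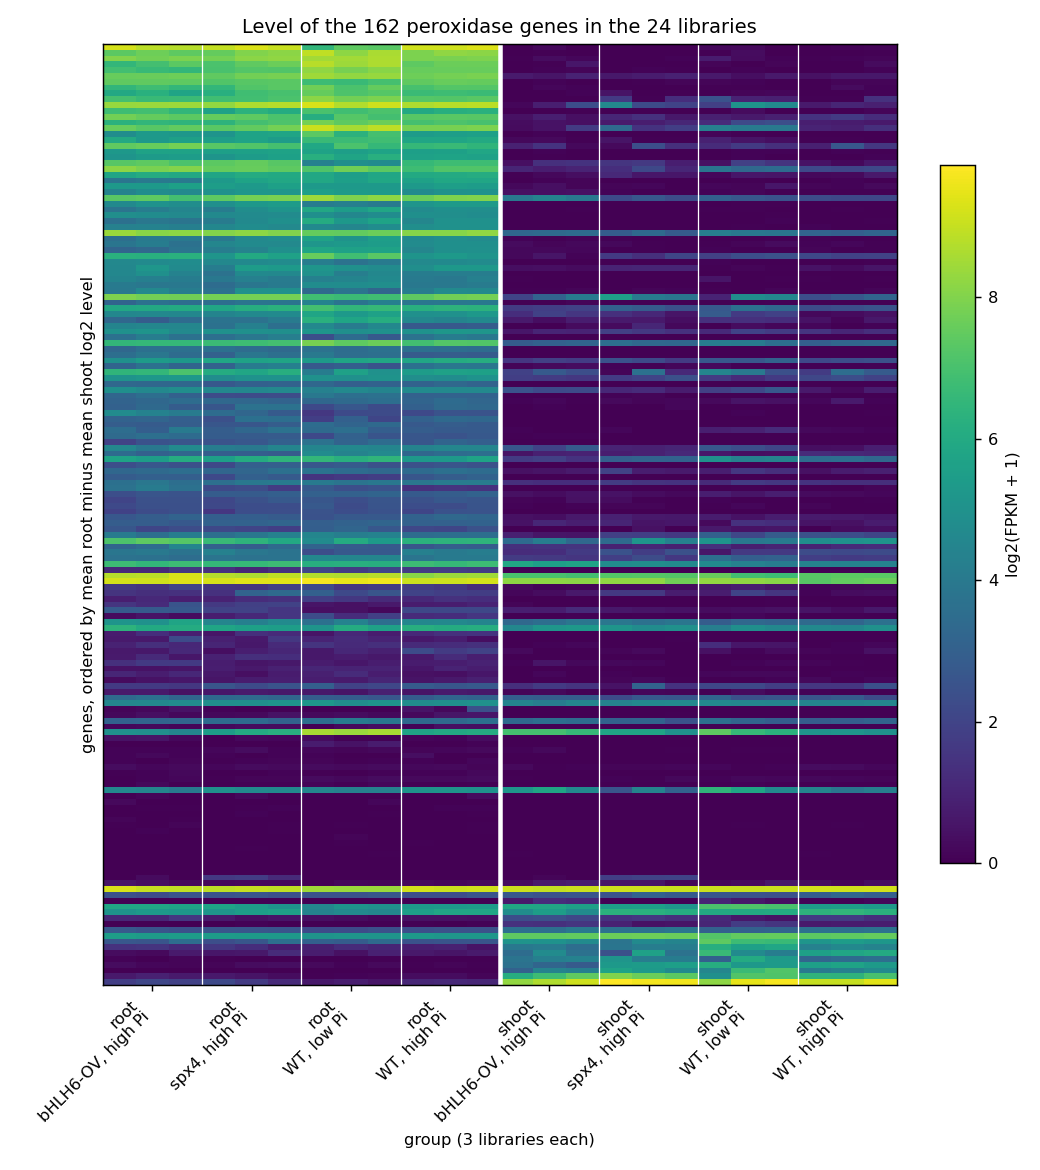
Level of every member (rows, ordered by mean root minus mean shoot level) in each of the 24 libraries (columns), as log2(FPKM + 1) by colour, with groups split by white lines. Of the 162 members 140 had the higher mean in roots and 20 in shoots.

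Between WT roots and WT shoots at high Pi, 103 of 119 tested members were higher in roots and 13 were higher in shoots. Of all genes tested 84.2% were called in either direction, 45.3% of all genes tested as higher in roots and 38.9% as lower. The median log2 difference was 3.07 over the members and 0.10 over all genes. Of the 103, 71 averaged under 1 FPKM in WT shoots, and such genes pass the filter on level only through roots, so their call follows from being tested at all. Of the 13, 7 averaged under 1 FPKM in WT roots and were tested through their level in other groups, so a like limit holds for them. All 3 root libraries lay above all 3 shoot libraries for 100 of the 119 tested members in bHLH6-OV, against 45.3% of all genes tested. The count was 100 in spx4 (45.2% of all genes), 97 in WT at low Pi (43.1%) and 104 in WT at high Pi (47.7%).

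Several haem peroxidases were almost purely root transcripts. LOC_Os07g01410 (chromosome 7, 259712 to 262744, plus strand, in the coordinates of the deposited table, whose build is not given) had 567, 570 and 644 FPKM in WT roots, against 0, 0.0644 and 0.0949 FPKM in WT shoots. It was the haem peroxidase with the highest level in WT roots. LOC_Os05g41990 had 243, 300 and 284 FPKM in roots, against 0, 0 and 0.0339 FPKM in shoots. LOC_Os03g25330 had 243, 235 and 246 FPKM in roots, against 0.028, 0.064 and 0.0942 FPKM in shoots. LOC_Os01g19020 had 403, 451 and 459 FPKM in roots, against 0.638, 1.03 and 0.814 FPKM in shoots. The groups were far apart in each of the 4 genes, with log2 differences of 9.14 ± 0.17, 8.09 ± 0.15, 7.83 ± 0.13 and 7.91 ± 0.68 (SE) in that order, given as a description because these genes were tested through their root level.

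A small group of members had the reverse pattern. APX8, the thylakoid ascorbate peroxidase, had 1.11, 1.21 and 1.07 FPKM in WT roots, against 518, 507 and 685 FPKM in WT shoots, a log2 difference of -8.05 ± 0.30 (limma adjusted p = 7.87e-16). LOC_Os04g51300 had 0.246, 0.268 and 0.109 FPKM in WT roots, against 84.0, 81.5 and 126 FPKM in WT shoots. LOC_Os01g22249 had 0.0485, 0.106 and 0.0539 FPKM in WT roots, against 46.7, 52.5 and 40.8 FPKM in WT shoots. LOC_Os04g59200 averaged 0.57 FPKM in WT roots and 55.9 FPKM in WT shoots. These haem peroxidases averaged under 1 FPKM in WT roots and were tested through other groups, so their values are given as a description. Of the 152 haem peroxidases 16 had the higher mean in shoots.

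A few abundant members were shared by both tissues. APX1 averaged 566 FPKM in WT roots and 178 FPKM in WT shoots, and APX2 averaged 567 FPKM in roots and 578 FPKM in shoots. The order of APX2 between the tissues depends on the scaling: on the TPM scale, where the median log2 difference of all genes moves to 0.56, it was higher in roots by 0.48 on the log2 scale. LOC_Os04g59150 was the most abundant haem peroxidase of WT shoots, with 278, 332 and 352 FPKM in roots, against 155, 167 and 162 FPKM in shoots. APX4, a peroxisomal form, averaged 36.7 FPKM in roots and 174 FPKM in shoots. The RNA was spread over more genes in roots: the 10 highest haem peroxidases held 44.1% of the summed level of the 152 in roots and 71.8% in shoots.

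**Figure D2:**
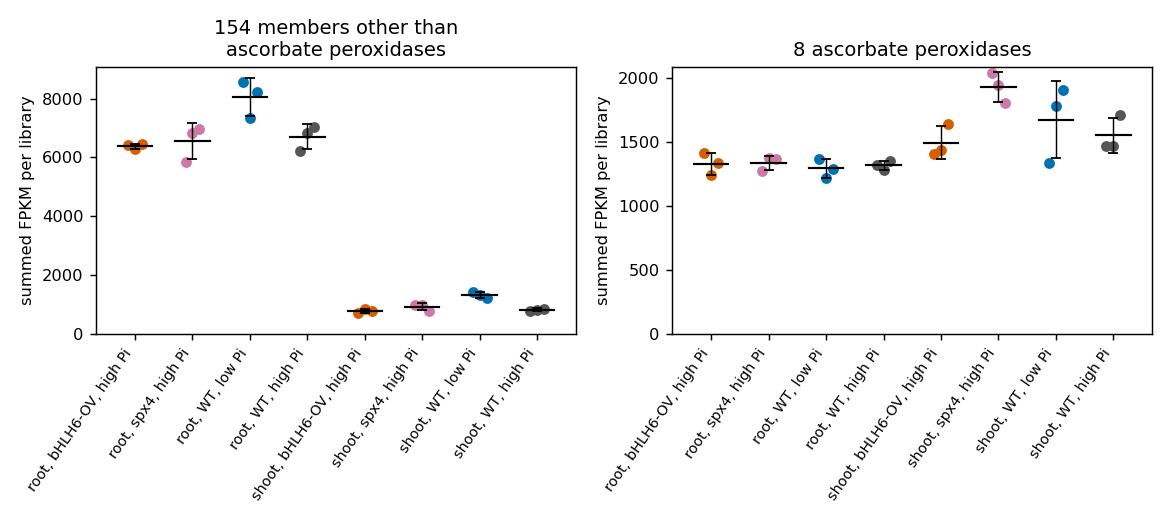
Summed FPKM per library of the 154 members other than ascorbate peroxidases (left) and of the 8 ascorbate peroxidases (right), for each group on the x axis; points are libraries, black lines the mean and bars the SD of 3 libraries. WT at low Pi has the highest haem peroxidase sums in both tissues, 7346 to 8578 FPKM in roots and 1225 to 1418 FPKM in shoots.

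The first question concerned Pi supply in WT roots. Low Pi changed many peroxidases in both directions. Of 120 tested members 37 rose and 25 fell, 51.7% in all, where 31.4% of all genes tested were called, 15.3% higher and 16.1% lower. The median log2 difference was 0.12 over the tested members and 0.01 over all genes. At least 2-fold changes on the log2(FPKM + 1) scale were seen in 8 members that rose and 11 that fell, given as a description without the share of all genes. The summed level of members without ascorbate peroxidases was 8578, 7346 and 8245 FPKM at low Pi, against 6220, 6842 and 7042 FPKM at high Pi, and the groups did not overlap.

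LOC_Os01g73170 (chromosome 1, 42429502 to 42432618, plus strand) rose most in roots. It had 385, 331 and 378 FPKM at low Pi, against 53.7, 61.3 and 66.6 FPKM at high Pi. Its log2 difference was 2.57 ± 0.18 (limma adjusted p = 1.99e-06), and the groups were well separated. LOC_Os06g48010 (chromosome 6, 29027003 to 29028481, minus strand) had 187, 114 and 161 FPKM at low Pi, against 33.3, 39.2 and 33.6 FPKM at high Pi (log2 difference 2.07 ± 0.20, limma adjusted p = 2.94e-05). Its neighbour LOC_Os06g48000 had 23.3, 16.0 and 22.5 FPKM at low Pi, against 5.69, 5.77 and 6.26 FPKM at high Pi (log2 difference 1.63 ± 0.17). LOC_Os12g02080 (chromosome 12, 623549 to 626113, plus strand) had 75.4, 54.5 and 70.5 FPKM at low Pi, against 23.4, 20.8 and 24.7 FPKM at high Pi (log2 difference 1.49 ± 0.16). In all 4 genes every low Pi library lay above every high Pi library. LOC_Os03g02939 and LOC_Os07g48060 rose by 1.38 ± 0.25 and 1.15 ± 0.11 on the log2 scale.

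The largest fall on the log2(FPKM + 1) scale was that of the most abundant root haem peroxidase. LOC_Os07g01410 had 89.1, 170 and 161 FPKM in roots at low Pi, against 567, 570 and 644 FPKM at high Pi, a log2 difference of -2.13 ± 0.22 (limma adjusted p = 4.1e-05). LOC_Os06g35520 had 19.2, 28.4 and 26.2 FPKM at low Pi, against 96.1, 110 and 111 FPKM at high Pi (log2 difference -2.08 ± 0.14). LOC_Os11g02100 had 0.324, 0.366 and 0.147 FPKM at low Pi, against 3.36, 3.42 and 3.36 FPKM at high Pi, and its ratio of means, 0.0824, was lower than the 0.236 of LOC_Os07g01410. The low Pi values were lower than every high Pi value in each. LOC_Os07g02440, LOC_Os06g29470 and LOC_Os06g20150 fell by 1.60, 1.26 and 1.21 on the log2 scale.

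Among the ascorbate peroxidases in roots, APX1 rose at low Pi, with 862, 736 and 801 FPKM, against 543, 561 and 594 FPKM at high Pi (log2 difference 0.50). APX2, the other cytosolic form, fell to 351, 335 and 337 FPKM at low Pi, against 587, 543 and 572 FPKM at high Pi (log2 difference -0.73 ± 0.10, limma adjusted p = 0.000271). APX7, the stromal form, fell to a mean of 72.4 FPKM at low Pi, against 104 FPKM at high Pi. All 9 leaf marker genes were called lower in low Pi roots too, and their part in the APX7 value was not tested. The summed ascorbate peroxidase level was 1292 ± 72.8 FPKM at low Pi and 1316 ± 37.7 FPKM at high Pi (SD, n = 3 each), less apart than the spread of libraries.

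In WT shoots low Pi moved the tested peroxidases mostly upwards. Of 55 tested members 23 rose and 6 fell, where 48.2% of all genes tested were called, 22.2% higher and 26% lower. The share called, 52.7%, was near that background, while the share that rose was 41.8% and the share that fell 10.9%. The median log2 difference was 0.38 over the tested members and -0.05 over all genes. On the log2(FPKM + 1) scale 16 of the 23 rose at least 2-fold and none of the 6 fell that far. The share of all genes with such changes is not given here, so these counts describe the members only. Of the 23, 7 averaged under 1 FPKM at high Pi and were tested because of their level in other groups. Without replicate 1 of the low Pi shoots the counts were 26 and 7. The summed level without ascorbate peroxidases was 1418, 1318 and 1225 FPKM at low Pi, against 761, 819 and 852 FPKM at high Pi, and the groups did not overlap. The 5 root marker genes fixed for these tissues summed to 10.1 to 14.7 FPKM in low Pi shoots, against 27.2 to 30.7 FPKM in high Pi shoots. Some of these markers also differed with Pi in their own tissue, as IRT1 did in roots (log2 difference -3.28). The 9 leaf marker genes summed to 28978, 75334 and 79390 FPKM in low Pi shoot replicates 1, 2 and 3, against 78597 to 96015 FPKM in high Pi shoots. The low value is thus that of replicate 1. Of the 9 genes 1 was called lower, and their part in the result was not tested.

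LOC_Os05g04380 (chromosome 5, 2010115 to 2015088, plus strand) had the largest rise in shoots. It had 18.9, 15.6 and 14.8 FPKM at low Pi, against 0.951, 0.822 and 1.48 FPKM at high Pi, a log2 difference of 3.07 ± 0.46 (limma adjusted p = 0.000266). In roots, where the gene is abundant, it stood at 463 FPKM at low Pi and 234 FPKM at high Pi. LOC_Os01g73200 had 170, 109 and 102 FPKM in shoots at low Pi, against 34.1, 42.9 and 36.4 FPKM at high Pi (log2 difference 1.69 ± 0.24). Its neighbour LOC_Os01g73170, which led the rise in roots, had 172, 96.5 and 78.7 FPKM in shoots at low Pi, against 32.9, 35.1 and 30.4 FPKM at high Pi (log2 difference 1.71 ± 0.27). Each of these low Pi groups lay wholly above its high Pi group.

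The animal-type member LOC_Os12g26290 rose to 5.36, 4.24 and 3.13 FPKM in low Pi shoots, against 0.284, 0.341 and 0.782 FPKM at high Pi. In plants this family includes enzymes that oxidise fatty acids. LOC_Os01g22352 had 6.07, 2.22 and 2.75 FPKM at low Pi, against 0.166, 0.221 and 0.372 FPKM at high Pi. LOC_Os01g19020 was called with 2.62, 33.8 and 25.2 FPKM at low Pi, against 0.638, 1.03 and 0.814 FPKM at high Pi, and the low Pi libraries were widely spread, with replicate 1 close to the high Pi values. Its adjusted p was 0.065 without low Pi replicate 2, 0.057 without low Pi replicate 3 and 0.12 in voom on rebuilt reads. APX1 rose in shoots too, with 306, 302 and 277 FPKM at low Pi, against 158, 177 and 198 FPKM at high Pi (log2 difference 0.73 ± 0.14, limma adjusted p = 0.00109).

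The 6 members that fell in low Pi shoots were mostly low genes. In FPKM the ratio of low Pi to high Pi means was 0.352 for LOC_Os04g59210 and 0.43 for both LOC_Os05g06970 and LOC_Os07g02440. LOC_Os06g13050 had 7.28, 7.37 and 7.87 FPKM at low Pi, against 11.8, 11.3 and 12.1 FPKM at high Pi (log2 difference -0.58 ± 0.10). LOC_Os07g02440 and LOC_Os04g59210 had log2 differences of -0.93 and -0.84. LOC_Os05g06970 (-0.64) was not called without high Pi replicate 2 or low Pi replicate 2, where its adjusted p was 0.068 and 0.055. LOC_Os04g53640 (-0.59) was not called without high Pi replicate 1, high Pi replicate 2 or low Pi replicate 2, with adjusted p of 0.055, 0.088 and 0.090, nor on the TPM scale (0.080). APX5 (-0.52) was not called without high Pi replicate 2, with an adjusted p of 0.058, nor on the TPM scale (0.086).

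**Figure D3:**
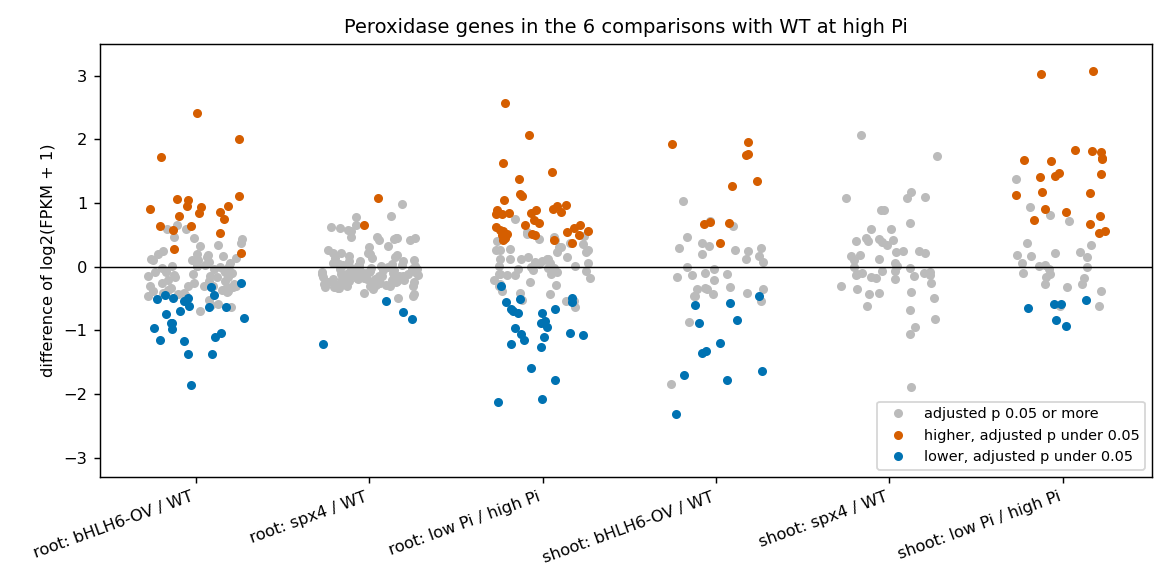
Difference of log2(FPKM + 1) of each tested member (points) in the 6 comparisons with WT at high Pi, 120 members in roots and 55 in shoots, coloured by the limma call; the sideways spread within a column has no meaning. In low Pi shoots 23 members were called higher and 6 lower, and in spx4 shoots none was called.

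Overexpression of bHLH6 at high Pi was compared with WT next. In roots 20 of 120 tested members rose and 25 fell, 37.5%, where 18% of all genes tested were called, 7.62% higher and 10.4% lower. The median log2 difference was -0.12 over the members and -0.02 over all genes. The count varied with the WT libraries: without WT replicate 2 it was 11 higher and 15 lower, and without WT replicate 3 it was 10 higher and 14 lower. The share of all genes called without these libraries is not given here, so this describes the members only. The summed level did not follow, with 7827, 7536 and 7783 FPKM in bHLH6-OV roots, against 7536, 8121 and 8396 FPKM in WT roots, so the groups overlapped.

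LOC_Os07g34710 (chromosome 7, 20803306 to 20805476, plus strand) rose most in bHLH6-OV roots. It had 12.2, 16.2 and 11.7 FPKM in bHLH6-OV roots, against 1.55, 1.82 and 1.65 FPKM in WT roots, a log2 difference of 2.42 ± 0.16 (limma adjusted p = 2.26e-06). LOC_Os08g20730 had 26.0, 19.98 and 16.3 FPKM in bHLH6-OV, against 3.52, 4.71 and 4.79 FPKM in WT (log2 difference 2.01 ± 0.23). LOC_Os06g48000 had 21.1, 22.1 and 22.4 FPKM in bHLH6-OV, against 5.69, 5.77 and 6.26 FPKM in WT (log2 difference 1.72 ± 0.17). These groups were clear of each other. LOC_Os06g48010 and LOC_Os10g02070 rose by 1.06 and 1.04 on the log2 scale. LOC_Os03g13210 (1.11) was called over all libraries but not when any 1 WT replicate or bHLH6-OV replicate 3 was left out, where its difference was 0.92 to 1.14 and its adjusted p 0.063 to 0.075.

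The largest fall in bHLH6-OV roots was that of LOC_Os05g04410 (chromosome 5, 2027782 to 2030203, plus strand). It had 13.2, 14.8 and 14.96 FPKM in bHLH6-OV roots, against 48.9, 57.6 and 56.8 FPKM in WT roots (log2 difference -1.85 ± 0.14, limma adjusted p = 9.89e-06). LOC_Os12g02080 had 8.75, 6.38 and 9.82 FPKM in bHLH6-OV, against 23.4, 20.8 and 24.7 FPKM in WT (log2 difference -1.38 ± 0.16). LOC_Os04g59160 had 8.06, 8.98 and 13.0 FPKM in bHLH6-OV, against 22.1, 29.3 and 30.3 FPKM in WT (log2 difference -1.37 ± 0.20). LOC_Os01g73170 had 29.7, 28.4 and 21.3 FPKM in bHLH6-OV, against 53.7, 61.3 and 66.6 FPKM in WT (log2 difference -1.17 ± 0.18). Every bHLH6-OV library lay below every WT library in these 4 genes. LOC_Os06g33090 and LOC_Os07g48010 fell by 1.15 and 1.10 on the log2 scale.

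Some members stood on opposite sides in bHLH6-OV and low Pi roots, and others on the same side, with both comparisons resting on the same WT high Pi libraries. LOC_Os01g73170 averaged 26.5 FPKM in bHLH6-OV roots, 365 FPKM in low Pi roots and 60.5 FPKM in WT high Pi roots. LOC_Os12g02080 averaged 8.32 FPKM in bHLH6-OV, 66.8 FPKM at low Pi and 22.9 FPKM in WT at high Pi. LOC_Os04g59160 averaged 10.0 FPKM in bHLH6-OV, 51.2 FPKM at low Pi and 27.2 FPKM in WT at high Pi. LOC_Os06g35520 went the other way, with 154 FPKM in bHLH6-OV, 24.6 FPKM at low Pi and 106 FPKM in WT at high Pi. LOC_Os06g48000 was above WT in both, with 21.8 FPKM in bHLH6-OV, 20.6 FPKM at low Pi and 5.91 FPKM in WT at high Pi.

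Among ascorbate peroxidases in bHLH6-OV roots, APX8 rose to 2.57, 3.24 and 2.80 FPKM, against 1.11, 1.21 and 1.07 FPKM in WT roots (log2 difference 0.86 ± 0.20, limma adjusted p = 0.0117). All 9 leaf marker genes also rose in bHLH6-OV roots, with a median log2 difference of 1.72, and APX8 is a chloroplast enzyme. Their part in this result was not tested. APX4 (log2 difference 0.21) and APX3 (-0.25) were called over all libraries, but both calls ended when certain single libraries were left out. The call of APX4 ended without any 1 WT replicate at high Pi, bHLH6-OV replicate 1 or 3, spx4 replicate 2 or 3 or WT low Pi replicate 3, with an adjusted p of up to 0.16 without WT replicate 2. That of APX3 ended without any 1 WT high Pi or bHLH6-OV replicate, spx4 replicate 2 or WT low Pi replicate 2 or 3, with an adjusted p of up to 0.14 without WT replicate 3.

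In bHLH6-OV shoots 10 of 55 tested members rose and 12 fell, 40%, where 31.3% of all genes tested were called, 14% higher and 17.3% lower. Of the 10, 4 averaged under 1 FPKM in WT shoots, and of the 12, 4 averaged under 1 FPKM in bHLH6-OV shoots. These genes were tested because of their level in other groups. On the TPM scale, which undoes the scaling between shoot libraries and moves the median log2 difference of all genes to 0.15, against -0.05 on the FPKM scale, the same comparison had 14 higher and 7 lower. The 9 leaf marker genes summed to 42990 to 72630 FPKM in bHLH6-OV shoots, against 78597 to 96015 FPKM in WT shoots, and 2 of them were called lower. Their part in these results was not tested. LOC_Os07g47990 had 14.7, 20.6 and 14.9 FPKM in bHLH6-OV shoots, against 3.83, 3.35 and 3.32 FPKM in WT shoots, a log2 difference of 1.96 ± 0.18 (limma adjusted p = 1.71e-05). LOC_Os01g73170 had 122, 124 and 97.8 FPKM in bHLH6-OV shoots, against 32.9, 35.1 and 30.4 FPKM in WT shoots (log2 difference 1.77 ± 0.27). APX7, the stromal ascorbate peroxidase, had 57.9, 46.7 and 52.5 FPKM in bHLH6-OV, against 20.2, 19.9 and 19.9 FPKM in WT (log2 difference 1.34 ± 0.13). In these 3 genes the groups lay apart. LOC_Os12g26290, LOC_Os01g57730 and LOC_Os01g22352, all under 1 FPKM on average in WT shoots, rose by 1.93, 1.75 and 1.26 on the log2 scale. APX1 rose as well, to 290 FPKM on average in bHLH6-OV shoots, against 178 FPKM in WT shoots.

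The fall that stood out in bHLH6-OV shoots was that of LOC_Os01g22249 (chromosome 1, 12509592 to 12519255, plus strand), 1 of the few haem peroxidases of shoots. It had 11.9, 8.38 and 6.17 FPKM in bHLH6-OV shoots, against 46.7, 52.5 and 40.8 FPKM in WT shoots, a log2 difference of -2.31 ± 0.24 (limma adjusted p = 5.34e-05). At low Pi its level in shoots averaged 49.0 FPKM, against 46.7 FPKM at high Pi. LOC_Os06g32990 had 2.25, 2.64 and 1.69 FPKM in bHLH6-OV, against 10.1, 10.7 and 8.84 FPKM in WT. LOC_Os06g20150 had 27.8, 43.7 and 26.1 FPKM in bHLH6-OV, against 82.8, 88.2 and 78.3 FPKM in WT. The groups did not overlap in these genes. LOC_Os06g48010 and LOC_Os06g33100 fell by 1.70 and 1.64 on the log2 scale, to means of 0.24 and 0.57 FPKM in bHLH6-OV shoots. LOC_Os08g02110 (-1.33) was called over all libraries, but its adjusted p was 0.063 to 0.096 without any 1 WT replicate or without bHLH6-OV replicate 1 or 3, and 0.094 on the TPM scale. APX5 (-0.46) lost its call in the same way without WT replicate 2 or 3 or bHLH6-OV replicate 2 or 3 (adjusted p 0.065 to 0.13), and had an adjusted p of 0.30 on the TPM scale.

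The spx4 mutation moved few members. In spx4 roots 2 of 120 tested members rose and 4 fell, 5%, where 2.46% of all genes tested were called, 0.634% higher and 1.82% lower. The count was 3 without WT replicate 2, without WT replicate 3 or without spx4 replicate 2. LOC_Os06g48000 had 11.8, 18.9 and 11.3 FPKM in spx4 roots, against 5.69, 5.77 and 6.26 FPKM in WT roots (log2 difference 1.08 ± 0.17, limma adjusted p = 0.00483). LOC_Os07g34670 had 3.88, 3.76 and 3.84 FPKM in spx4, against 7.33, 7.61 and 7.63 FPKM in WT (log2 difference -0.82 ± 0.12, limma adjusted p = 0.00257). LOC_Os06g33090 had 0.284, 0.780 and 1.07 FPKM in spx4, against 3.72, 2.26 and 2.86 FPKM in WT (log2 difference -1.22 ± 0.20). In these 3 genes the spx4 and WT libraries did not overlap. LOC_Os06g35520 (0.66), LOC_Os12g02080 (-0.72) and LOC_Os07g48060 (-0.54) were called over all libraries, with adjusted p of 0.033, 0.039 and 0.029. The call of LOC_Os06g35520 ended without any 1 WT replicate or spx4 replicate 1 or 2 (adjusted p up to 0.14). That of LOC_Os12g02080 ended without any 1 WT replicate, spx4 replicate 1 or 2, bHLH6-OV replicate 1 or WT low Pi replicate 3 (up to 0.16). That of LOC_Os07g48060 ended without WT replicate 2 or 3 or any 1 spx4 replicate (up to 0.14).

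In spx4 shoots limma called 0 of 55 tested members, where 2.14% of all genes tested were called, 0.725% higher and 1.42% lower. An unadjusted limma p under 0.05 was found for 14 members. The share of all genes at that cut is not given here, so the 14 are not read as a result. Voom on rebuilt reads called 1 member. The single libraries mattered: 4 members were called without WT low Pi replicate 1, which enters through the shared spread, 2 without spx4 replicate 3 and 1 without spx4 replicate 2. APX1 had 296, 302 and 214 FPKM in spx4 shoots, against 158, 177 and 198 FPKM in WT shoots, with a log2 difference of 0.59, and was the member voom called (adjusted p = 0.039). One haem peroxidase below the level filter is given outside the naming rule and was chosen here after its values were seen. LOC_Os04g06860 (chromosome 4, 3617349 to 3617974, minus strand) had 2.11, 2.39 and 1.29 FPKM in spx4 roots, against 0 in all 3 WT high Pi roots. In shoots it had 2.58, 2.81 and 2.91 FPKM in spx4, against 0 in all 3 WT high Pi shoots. It was at 0 in all 6 WT low Pi libraries as well, and in bHLH6-OV it had reads in 1 root library (0.215 FPKM) and 1 shoot library (0.0884 FPKM). Whether its reads follow from the spx4 mutation or from another difference of the line was not tested.

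The 2 lines differed from each other in a direct test. In roots 7 of 120 members were higher in bHLH6-OV than in spx4 and 11 were lower, where 6.58% of all genes tested were called, 3.46% higher and 3.12% lower. The count was 10, 11 and 11 without bHLH6-OV replicate 1, 2 and 3, 11 without spx4 replicate 2 and 8 without spx4 replicate 3. LOC_Os07g34710 had 12.2, 16.2 and 11.7 FPKM in bHLH6-OV roots, against 3.36, 3.91 and 2.27 FPKM in spx4 roots (log2 difference 1.79 ± 0.16, limma adjusted p = 2.53e-05). LOC_Os05g04410 had 13.2, 14.8 and 14.96 FPKM in bHLH6-OV, against 39.5, 52.6 and 60.1 FPKM in spx4 (log2 difference -1.74 ± 0.14). LOC_Os08g20730, LOC_Os07g34670 and LOC_Os11g02100 were higher in bHLH6-OV by 1.23, 1.01 and 0.94 on the log2 scale. LOC_Os01g73170 and LOC_Os04g59160 had log2 differences of -1.15 and -1.06. LOC_Os07g48010 (-0.82, adjusted p = 0.041) lost its call when any 1 of the root libraries of bHLH6-OV, spx4 or WT at high Pi was left out, with an adjusted p of up to 0.12 without spx4 replicate 3.

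In shoots 10 of 55 members were higher in bHLH6-OV than in spx4 and 11 were lower, where 32% of all genes tested were called. On the TPM scale, with a median of 0.24 over all genes, the split was 15 higher and 8 lower. LOC_Os01g22249 had 11.9, 8.38 and 6.17 FPKM in bHLH6-OV shoots, against 38.2, 41.9 and 46.9 FPKM in spx4 shoots (log2 difference -2.18 ± 0.24). LOC_Os07g47990 had 14.7, 20.6 and 14.9 FPKM in bHLH6-OV, against 3.60, 5.46 and 3.90 FPKM in spx4 (log2 difference 1.74 ± 0.18). LOC_Os12g26290 and LOC_Os01g73170 were higher in bHLH6-OV by 1.501 and 1.34, and LOC_Os06g32990 and LOC_Os06g48010 had log2 differences of -1.42 and -1.39. LOC_Os07g48020 (1.85) was not called without bHLH6-OV replicate 2, spx4 replicate 1 or spx4 replicate 3, with adjusted p of 0.068, 0.067 and 0.060. LOC_Os05g04380 (-1.37) was not called without any 1 WT high Pi replicate, bHLH6-OV replicate 1 or 2, spx4 replicate 1 or 3 or WT low Pi replicate 2 or 3, with an adjusted p of up to 0.15. APX8 (-1.05) was not called without any 1 WT high Pi or spx4 replicate or bHLH6-OV replicate 1 or 2, also with an adjusted p of up to 0.15. The leaf markers, which like APX8 belong to photosynthetic tissue, summed to 42990 to 72630 FPKM in bHLH6-OV shoots, against 98537 to 118279 FPKM in spx4 shoots, and 3 of 9 were called lower. Their part in the APX8 value was not tested.

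Effects were also compared between root and shoot. The bHLH6-OV effect was higher in roots than in shoots for 19 of 119 members and lower for 24, 36.1% in all. Of all genes tested 29.4% were called, 15.1% higher and 14.3% lower. For the low Pi effect 24 were higher in roots and 31 lower, 46.2% in all. Of all genes 37.9% were called, 18.6% higher and 19.3% lower. For the spx4 effect 0 were higher and 1 lower, where 1.83% were called, 0.748% higher and 1.08% lower. The spx4 count was between 1 and 5 when single libraries were left out, with 5 without spx4 root replicate 3 or without WT low Pi shoot replicate 1. A member near 0 in shoots differs here through its root change. Voom on rebuilt reads called 27 members for bHLH6-OV and 24 for low Pi (6 higher and 18 lower).

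In bHLH6-OV 8 members were called in both tissues, 6 of them with opposite signs, where 38.6% of the 1086 genes called in both tissues had opposite signs. Of these members 3 rose in roots and fell in shoots (LOC_Os06g48010, LOC_Os05g04490 and LOC_Os08g02110), and 3 fell in roots and rose in shoots (LOC_Os01g73170, LOC_Os07g47990 and LOC_Os01g22352). The other 2 moved the same way in both. The shoot call of LOC_Os08g02110 depended on single libraries, as given above, and LOC_Os01g22352 averaged 0.25 FPKM in WT shoots. The 6 of 8 is therefore a description. At low Pi 13 members were called in both tissues, of which 10 moved the same way and 3 fell in roots and rose in shoots (LOC_Os09g29490, LOC_Os01g22370 and LOC_Os07g48020). Of all 2953 genes called in both, 22.6% had opposite signs. In spx4 no member was called in both tissues.

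LOC_Os01g73170 fell in bHLH6-OV roots (26.5 FPKM, against 60.5 FPKM in WT roots) and rose in bHLH6-OV shoots (114 FPKM, against 32.8 FPKM in WT shoots), a difference of effects of -2.94 ± 0.35 (limma adjusted p = 5.04e-06). At low Pi the same gene rose in both tissues. LOC_Os06g48010 rose in bHLH6-OV roots (74.8 FPKM, against 35.4 FPKM in WT roots) and fell in bHLH6-OV shoots (0.24 FPKM, against 3.00 FPKM in WT shoots), a difference of 2.76 ± 0.30 (limma adjusted p = 1.88e-06). LOC_Os09g29490 (chromosome 9, 17932644 to 17935814, minus strand) rose in low Pi shoots, with 135, 140 and 130 FPKM, against 41.5, 44.1 and 39.7 FPKM in high Pi shoots. In roots it had 22.1, 33.0 and 28.8 FPKM at low Pi, against 37.6, 38.7 and 41.7 FPKM at high Pi, and the difference of effects was -2.16 ± 0.20 (limma adjusted p = 1.31e-07). Its root fall alone was fragile, with an adjusted p of up to 0.14 without any 1 high Pi replicate of WT, low Pi replicate 1 or 3 or spx4 replicate 2.

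**Figure D4:**
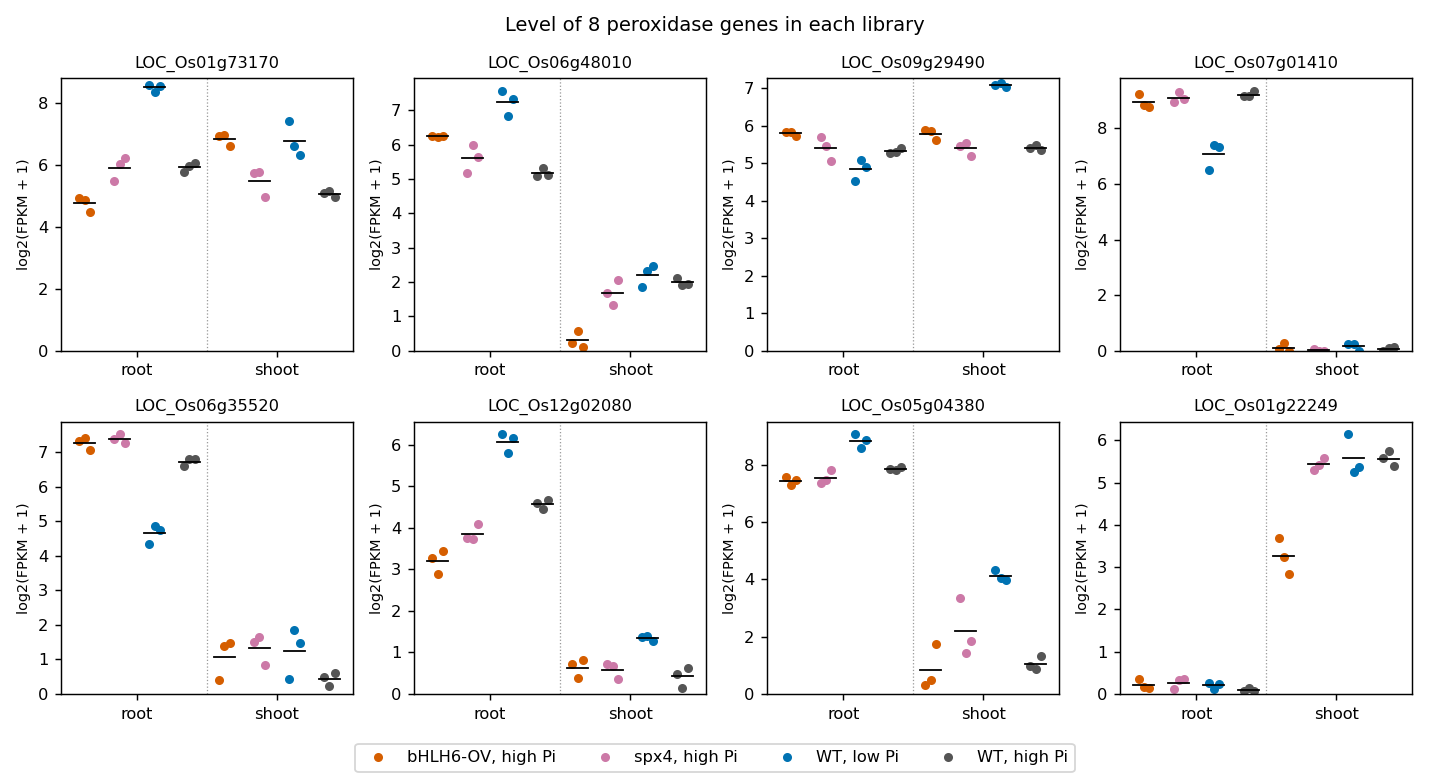
Level of 8 haem peroxidases in each library as log2(FPKM + 1), by tissue and group (colours); points are libraries and black lines the group means. LOC_Os01g73170 is lowest in bHLH6-OV among the root groups, yet in shoots bHLH6-OV (114 FPKM) is close to low Pi (116 FPKM) and above WT at high Pi (32.8 FPKM).

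Most members sit beside other members. Joining members whose starts lie within 100 kb gave 29 clusters with 107 members, and 55 members stood alone. Chromosome 7 held 29 members and chromosome 1 held 24. The largest clusters had 7 members, on chromosomes 3, 5 and 7. Reads of near-identical tandem copies may have been divided between them in counting, so values of neighbours carry that uncertainty.

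Calls within a cluster were compared in each contrast. Between WT roots and shoots 18 of 25 clusters with at least 2 tested members had every tested member called in 1 direction, and 6 had calls in both. As 103 of all 119 tested members were called higher in roots, many of them tested only through their root level, the 18 say little about neighbours. Of 24 clusters with at least 2 tested members in roots, 7 had members called in both directions at low Pi, 3 had no call and 1 had every tested member called in 1 direction. In bHLH6-OV roots 4 of the 24 had calls in both directions. In shoots, with 10 such clusters, calls in both directions were found in 0 at low Pi and in 1 in bHLH6-OV. Genes that are not neighbours were not compared in this way. The chromosome 3 cluster from LOC_Os03g25280 to LOC_Os03g25370 had 5 of 7 members higher at low Pi and none lower, with log2 differences of -0.07 to 0.85. The chromosome 5 cluster from LOC_Os05g04380 to LOC_Os05g04500 had 2 higher and 1 lower of 7, with -1.08 to 0.97. In the chromosome 6 cluster from LOC_Os06g35480 to LOC_Os06g35520, 2 of 3 members were tested in roots. Of these, LOC_Os06g35480 rose by 0.89 and LOC_Os06g35520 fell by 2.08. The chromosome 7 cluster from LOC_Os07g47990 to LOC_Os07g48060 was among the 6 with calls in both directions between tissues: LOC_Os07g48030 averaged 189 FPKM in WT roots and 0.02 FPKM in WT shoots, and its neighbour LOC_Os07g48040 averaged 0.02 FPKM in roots and 9.76 FPKM in shoots.

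**Figure D5:**
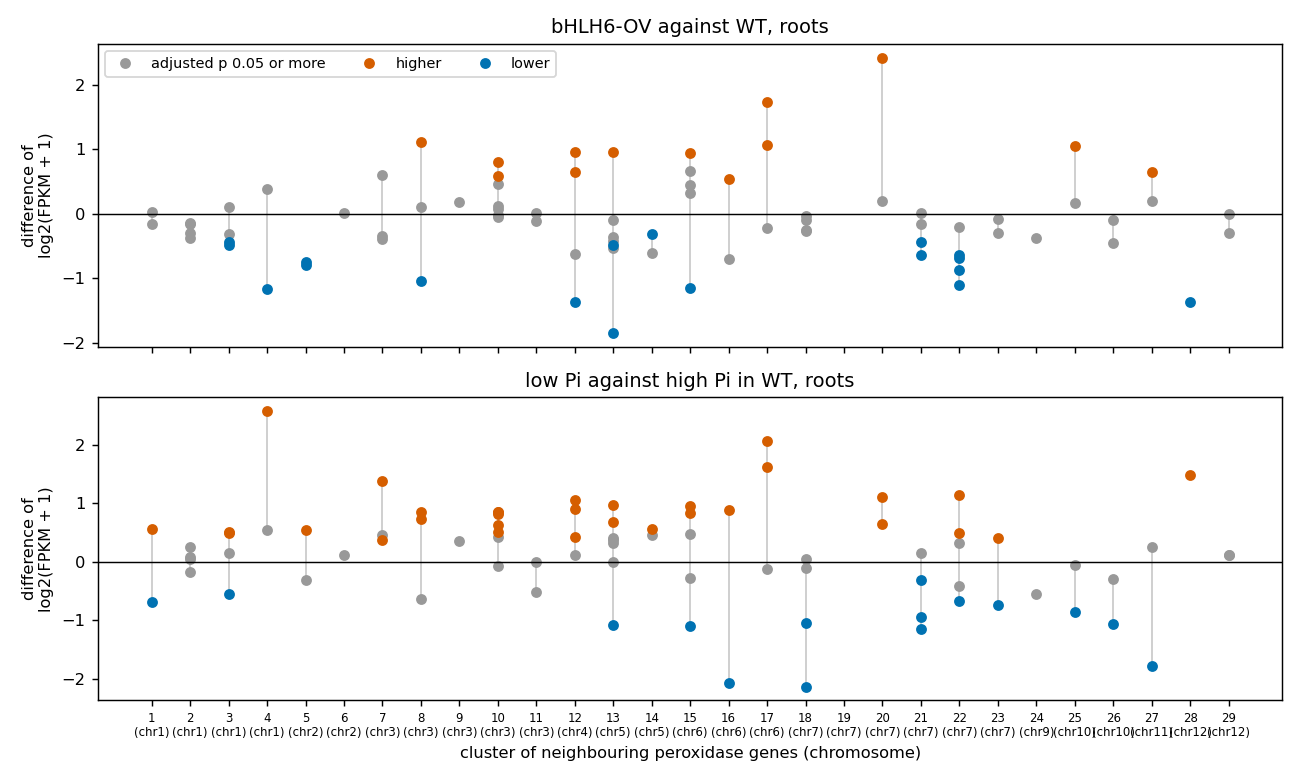
Difference of log2(FPKM + 1) of the tested members of each cluster (x axis, numbered along the chromosomes) in bHLH6-OV against WT roots (top) and in low Pi against high Pi WT roots (bottom); points are genes coloured by call and grey lines join the genes of a cluster. In 7 of the 24 clusters with at least 2 tested members the low Pi calls point both ways.

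Genes that work with peroxidases were read from lists fixed by locus or description, and their counts stand against the shares of all genes given above, such as 22.2% higher and 26% lower in low Pi shoots and 14% higher and 17.3% lower in bHLH6-OV shoots. Phenylpropanoid and monolignol synthesis supplies the phenolic substrates of class III peroxidases. In low Pi shoots 16 of its 19 tested genes rose and none fell, with a median log2 difference of 1.54, and LOC_Os01g60450 rose most (3.43 ± 0.34). In low Pi roots 9 of 20 rose and none fell, with phenylalanine ammonia-lyase PAL5 at 0.86. In bHLH6-OV shoots 5 of 19 rose and none fell, led by PAL6 (3.43 ± 0.33). In bHLH6-OV roots none of 20 rose and 4 fell, with PAL5 at -0.59. In spx4 none was called in either tissue.

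NADPH oxidases make the superoxide from which hydrogen peroxide forms outside the cell. In low Pi shoots 6 of 7 tested rose and none fell, led by RBOHF at 2.06 ± 0.41, and in low Pi roots 4 of 8 rose and none fell, with RBOHB at 0.71. In bHLH6-OV shoots 2 of 7 rose and 1 fell, and in bHLH6-OV roots 0 of 8 rose and 1, RBOHE, fell (-0.40). Laccases and other multicopper oxidases also couple phenolics. In low Pi roots 9 of 31 rose and 5 fell, with LOC_Os01g03640 at 3.89 ± 0.27, and in bHLH6-OV roots 1 rose and 4 fell, with the same gene at -1.61. In low Pi shoots 2 of 9 rose, a share like that of all genes, and none fell, and in bHLH6-OV shoots 2 rose and 1 fell.

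Catalases and superoxide dismutases handle reactive oxygen inside the cell. CATA was higher in low Pi roots by 1.23 ± 0.15 and had a log2 difference of -0.98 in bHLH6-OV roots. Of 3 catalases, 1 rose and 1 fell in each of those comparisons, and none was called in low Pi or bHLH6-OV shoots. Of 9 superoxide dismutases, 4 rose and 3 fell in low Pi shoots, 3 rose and 1 fell in low Pi roots, 4 fell in bHLH6-OV shoots and 1 fell in bHLH6-OV roots. In spx4 none of the NADPH oxidases, multicopper oxidases, catalases or superoxide dismutases was called in either tissue. A list of dirigent proteins matched no description.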

How the data were processed

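The submitters' processing notes name HISAT2, StringTie, featureCounts 1.5.0-p3 and DESeq2, without their settings. The genome build is not given in the sources used here, nor is whether libraries kept strand, so antisense reads cannot be told apart. The values analysed are FPKM, which the authors deposited in 1 table covering 57668 features. FPKM multiplied by gene length gave whole multiples of a library's own step in every feature, within 0.01 reads, which gave the read numbers, and the step followed median-of-ratios size factors over the 24 libraries to within a ratio of 0.995 to 1.005. The deposited FPKM is therefore scaled between libraries already.

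Genes with a mean of at least 1 FPKM were fitted as log2(FPKM + 1) with limma 3.58.1 (robust, with a trend) in R 4.3.3, over 12 libraries per tissue, or over 24 for contrasts between tissues, and p-values were adjusted by Benjamini-Hochberg over all genes of a fit. Python 3.11.15 served for summaries (numpy 2.4.6, pandas 2.3.3) and figures (matplotlib 3.10.9). The fit was tested on simulated data. Totals of 21.0 to 29.6 M reads per library and 3 libraries a group set the precision.

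Members, gene lists and tests were chosen with earlier results of these data known. Named members are the 8 highest per tissue, the 6 highest and 6 lowest called differences with non-overlapping groups per comparison with WT, the 4 highest and 4 lowest in the other comparisons, and the 8 ascorbate peroxidases. Symbols APX1 to APX8 were assigned to loci from knowledge of the family, and the reference gene table (assembly ASM3414082v1) lists genes of these names on the same chromosomes. Its build may differ from that of the deposited table, so none of its coordinates is used, and no sequence is printed. Alternatives were pseudocounts of 0.5 and 0.1, no minimum, a minimum of 5 FPKM, TPM, TMM scaling, the replicate number as a block, and each library left out. Voom on rebuilt reads, a block in the bHLH6-OV and spx4 libraries alone and a smaller set of members were added after the data were seen. The main fits used no pairing. Same-numbered bHLH6-OV and spx4 root libraries deviated together (correlation 0.23 to 0.48, unlike numbers -0.36 to 0.19), and no other pair of groups did so in all 3 numbers over 0.1. At lower values, same numbers still lay above all unlike numbers for bHLH6-OV with WT at high Pi. This was 0.075 to 0.158 in roots (unlike -0.119 to -0.029) and 0.09 to 0.21 in shoots (unlike -0.20 to 0.07). The same order held between roots and shoots of spx4 (0.074 to 0.135, unlike -0.128 to 0.037), bHLH6-OV and WT at high Pi. The main tests between tissues did not model this. The added block was set in the bHLH6-OV and spx4 root libraries alone, as an alternative fit. These pairings come from the values and not from the labels.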

Additional observations from a re-analysis of the deposited data

Results flagged for a closer look

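Differences between root and shoot effects were tested for every gene in 1 limma fit over 24 libraries, and the members with the largest called differences are given as values on the log2(FPKM + 1) scale, root effect minus shoot effect. That fit treats root and shoot libraries as independent, though the labels do not say whether they share seedlings. For bHLH6-OV against WT the difference was 2.76 for LOC_Os06g48010, 2.46 for LOC_Os07g34710, 2.44 for LOC_Os01g22249 and 2.23 for LOC_Os08g02110. It was -1.91 for LOC_Os05g04410, -2.02 for LOC_Os12g26290, -2.60 for LOC_Os07g47990 and -2.94 for LOC_Os01g73170. LOC_Os07g34710 and LOC_Os05g04410 were near 0 in shoots and LOC_Os01g22249 near 0 in roots. In voom on rebuilt reads LOC_Os05g04410 kept its sign (-2.84) with an adjusted p of 0.066.

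For spx4 against WT the single called member was LOC_Os07g34670, with a difference of -0.88, which was -2.12 with an adjusted p of 0.28 in voom. It was near 0 in shoots.

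For low Pi against high Pi in WT the difference was 1.85 for LOC_Os06g48010, 1.79 for LOC_Os07g48060, 1.56 for LOC_Os06g48000 and 1.31 for LOC_Os03g02939. It was -2.16 for LOC_Os09g29490, -2.21 for LOC_Os07g01410, -2.77 for LOC_Os01g19020 and -2.90 for LOC_Os06g35520. LOC_Os09g29490 averaged 27.9 FPKM or more in every group of both tissues. LOC_Os06g48000, LOC_Os03g02939 and LOC_Os07g01410 averaged under 1 FPKM in every shoot group, and in voom their adjusted p was 0.45, 0.94 and 0.12. The call of LOC_Os01g19020 ended when WT root replicate 2 or 3 at high Pi, low Pi root replicate 2, WT shoot replicate 1 at high Pi, or low Pi shoot replicate 2 or 3 was left out, with adjusted p of 0.050 to 0.086.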

How the results depend on the processing

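Counts of called members kept within 1.5 times of their value under the pseudocounts, filters, scalings and member sets tried, with the exceptions that follow. With a minimum of 5 FPKM the shoot counts were 11 for bHLH6-OV against WT, 16 for low Pi and 12 for bHLH6-OV against spx4, where fewer genes were tested. For spx4 against WT in shoots, where limma called 0, the count was 1 with a pseudocount of 0.5 or 0.1, 2 with no minimum and 1 in voom on rebuilt reads. For the spx4 difference between tissues, where it was 1, it was 2 with a pseudocount of 0.1, 2 with no minimum, 0 with a minimum of 5 FPKM, 0 in voom and 2 with the replicate block. In voom the bHLH6-OV difference between tissues had 27 calls and that of low Pi 24. The split of the low Pi difference was 13 higher and 27 lower with a pseudocount of 0.1. With no minimum the split was 16 higher and 9 lower for bHLH6-OV against WT in shoots and 15 higher and 9 lower for bHLH6-OV against spx4. The summed level of shoots in bHLH6-OV over WT was 1.122 on the TPM scale, against 0.958 in FPKM, and low Pi over high Pi was 1.628 without the ascorbate peroxidases, against 1.268 with them. The cause of these shifts was not tested. Reversed signs were those of APX2 (0.48) and LOC_Os09g29490 (0.41) between root and shoot on the TPM scale and of LOC_Os03g02939 in the low Pi difference between tissues in voom (-0.20).

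With single libraries left out, the count ran from 24 to 51 for bHLH6-OV roots, 3 to 7 for spx4 roots, 49 to 71 for low Pi roots, 8 to 25 for bHLH6-OV against spx4 roots, 15 to 25 for bHLH6-OV shoots, 0 to 4 for spx4 shoots, 22 to 33 for low Pi shoots and 14 to 29 for bHLH6-OV against spx4 shoots. It ran from 114 to 117 between root and shoot, and for the differences between tissues from 35 to 47 for bHLH6-OV, 1 to 5 for spx4 and 48 to 61 for low Pi. With the replicate number as a block, bHLH6-OV against spx4 roots had 15 calls, and 24 with the block in those 2 groups alone, against 18. Apart from the spx4 difference between tissues, these paired fits changed no count by over 1.5 times. The planned edgeR and DESeq2 fits were not run, and voom on rebuilt reads was the only fit to read numbers. No description is the word peroxidase alone. Depth limits only the members near 0.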
